A study of Mus musculus with 8 samples.

Results

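The 40 cell cycle genes described here were taken as a list of symbols out of 29621 genes with a matched transcript. The rule for the list used no measured values, but earlier results of these data were known when it was chosen. They fall into 3 groups by role, 18 genes of G2 and mitosis (G2/M), 14 genes of the G1/S transition and DNA replication (G1/S) and 8 regulators of G1. All 40 passed the filter on low counts and were tested among 14267 genes. RNA came from the pancreas of C57BL/6 mice at postnatal day 42, taken after perfusion, flash frozen and sequenced after ribosomal depletion, with 4 libraries of each of 2 genotypes. Both genotypes carried p48-Cre, a Cre recombinase expressed from the Ptf1a locus and therefore active in the pancreatic epithelial lineage, and floxed Trp53 (Trp53fl/fl). Both are models of pancreatic cancer, and neither is a normal pancreas. The KPC-OG mice in addition carried R26tm1(LSL-OG), an allele at the Rosa26 locus that is silent until Cre removes a stop cassette, and the series title calls the model antigenic. The OG transcript was not analysed here, so that the label of the KPC-OG libraries was not checked on it. The labels do not say that the libraries came from separate mice, and a p-value here therefore reflects how these libraries scatter, which may be technical.

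Cells divide by passing from G1 through DNA synthesis to G2 and mitosis. D-type cyclins with Cdk4 or Cdk6, and then cyclin E with Cdk2, phosphorylate the retinoblastoma protein Rb1, which releases E2F factors to switch on genes of DNA replication, and Cdkn1b (p27) inhibits these kinases. Genes of G2 and mitosis are switched on later by the MuvB complex with B-Myb and FoxM1, and their promoters are known for the cell cycle homology region (CHR) and for CCAAT boxes bound by NF-Y. In pancreas most acinar cells of the adult divide rarely, and proliferation genes are read in tumours as a measure of dividing cells of any type. In bulk tissue fewer cells of a type and less RNA per cell cannot be told apart.

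Promoter windows from RefSeq (GRCm38.p6, 250 bases before to 50 bases after each gene start) were matched for 32 of the 40 genes, in 35 windows. The CHR, searched as TTTGAA or TTCGAA on both strands, was in 12 of 15 windows of G2/M genes, in 3 of 14 of G1/S genes and in 0 of 6 of G1 regulators, beside 19.2% of all 32851 windows. CCAAT, on either strand, was in 14 of 15 G2/M, 11 of 14 G1/S and 3 of 6 G1 regulator windows, against 37.4% of all windows, and at least 2 copies were in 10 of 15, 6 of 14 and 1 of 6, against 11.7%. An E2F motif (TTTCCCGC, TTTCGCGC, TTTGCCGC or TTTGGCGC, both strands) was in 5 of 14 G1/S, 1 of 15 G2/M and 1 of 6 G1 regulator windows, against 2.26% of all windows. A match of letters is a description and not a site. The 150 bases before the start are shown for genes that carry these letters in different arrangements and whose values are given below, with matches in capitals (CCAAT reads ATTGG and TTTGAA reads TTCAAA on the other strand). Mki67 has paired CHR letters with CCAAT upstream at chr7:135716380-135716529 (minus strand), Ccnb1 has CCAAT letters alone at chr13:100786487-100786636 (minus strand), Cdk1 has E2F, CCAAT and CHR letters together at chr10:69352913-69353062 (minus strand), and Cdc20 has CHR letters between CCAAT letters at chr4:118437344-118437493 (minus strand). Kif11 has both on the other strand at chr19:37376232-37376381 (plus strand). Of the G1/S genes, Mcm2 has CHR letters alone within the bases shown, at chr6:88898781-88898930 (minus strand), and CCAAT on the other strand further upstream in its window. Mcm6 has E2F letters, read in part on both strands, and CCAAT on the other strand at chr1:128359706-128359855 (minus strand).
Mki67: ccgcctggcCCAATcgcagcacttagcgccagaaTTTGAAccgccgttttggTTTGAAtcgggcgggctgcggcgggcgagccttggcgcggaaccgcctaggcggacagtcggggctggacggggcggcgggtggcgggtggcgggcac
Ccnb1: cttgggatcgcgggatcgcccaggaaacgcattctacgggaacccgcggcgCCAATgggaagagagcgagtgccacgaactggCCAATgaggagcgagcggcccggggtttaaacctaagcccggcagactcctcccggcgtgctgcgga
Cdk1: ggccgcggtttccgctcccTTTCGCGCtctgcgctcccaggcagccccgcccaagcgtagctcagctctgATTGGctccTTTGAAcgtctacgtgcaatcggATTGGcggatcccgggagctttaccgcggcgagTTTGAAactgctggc
Cdc20: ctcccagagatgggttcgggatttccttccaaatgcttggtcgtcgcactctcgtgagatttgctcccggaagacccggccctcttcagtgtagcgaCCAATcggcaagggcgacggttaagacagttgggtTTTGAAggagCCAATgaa
Kif11: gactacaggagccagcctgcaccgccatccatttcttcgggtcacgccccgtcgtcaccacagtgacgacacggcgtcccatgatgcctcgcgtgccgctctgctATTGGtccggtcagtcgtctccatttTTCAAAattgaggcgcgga
Mcm2: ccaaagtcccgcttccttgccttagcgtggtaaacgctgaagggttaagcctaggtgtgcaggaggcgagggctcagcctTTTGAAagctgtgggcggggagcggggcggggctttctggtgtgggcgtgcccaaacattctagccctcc
Mcm6: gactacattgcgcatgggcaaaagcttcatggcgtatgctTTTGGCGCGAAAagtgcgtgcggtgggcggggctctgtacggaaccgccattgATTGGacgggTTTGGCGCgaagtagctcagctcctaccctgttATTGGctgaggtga

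Each KPC library held 7373286 to 11292570 estimated reads, and each KPC-OG library 13671606 to 18292115. Reads assigned to Lars2 alone took 20.8% to 29.95% of gene reads in KPC, and scaling by trimmed mean of M values (TMM), which gives counts relative to an effective library size (TMM-scaled CPM), set that size at 3768731 to 5922785 in KPC and 15272077 to 38590500 in KPC-OG. Values of low genes therefore rest on few reads in KPC. The scaling moves directions: with library sizes only, the median log2 fold change of all genes was 1.82 and that of the 40 genes 1.91, with 39 of the 40 above 0 and only Rb1 below, against medians of 0.09 and 0.14 with TMM. Directions below are therefore relative to the bulk of genes. Acinar markers, which define the tissue, were present in every library at a summed 284799 to 521288 CPM in KPC and 46227 to 146270 CPM in KPC-OG. With TMM all 13 had log2 fold changes below 0. Of these, 12 passed the edgeR test described below as lower in KPC-OG, beside 16.6% of all genes. With library sizes only, 5 markers of all the cell type lists together were lower and 46 higher.

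Few of the 40 genes differed between the genotypes. In the edgeR quasi-likelihood test, with p-values adjusted by Benjamini-Hochberg over all 14267 genes, 4 of 40 passed an adjusted p of 0.05, where 34.1% of all genes did. Ccnd1 rose, the 1 gene to do so against 17.4% of all genes, and E2f1, Ccnd2 and Rb1 fell, 3 genes against 16.6% of all genes. With library sizes only the split was 34 higher and 1 lower, with 13078 of all genes higher and 99 lower. Log2 fold changes were above 0 for 25 genes and below 0 for 15. The 4 KPC and 4 KPC-OG libraries did not overlap for 3 of the 40 genes (E2f1, Ccnd2 and Rb1, all lower), beside 34.5% of all genes in either direction and 17% in the lower direction. The median SE of the log2 fold change was 0.39 over the G2/M genes, 0.27 over the G1/S genes and 0.18 over the G1 regulators, beside 0.22 over all genes tested.

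**Figure D1:**
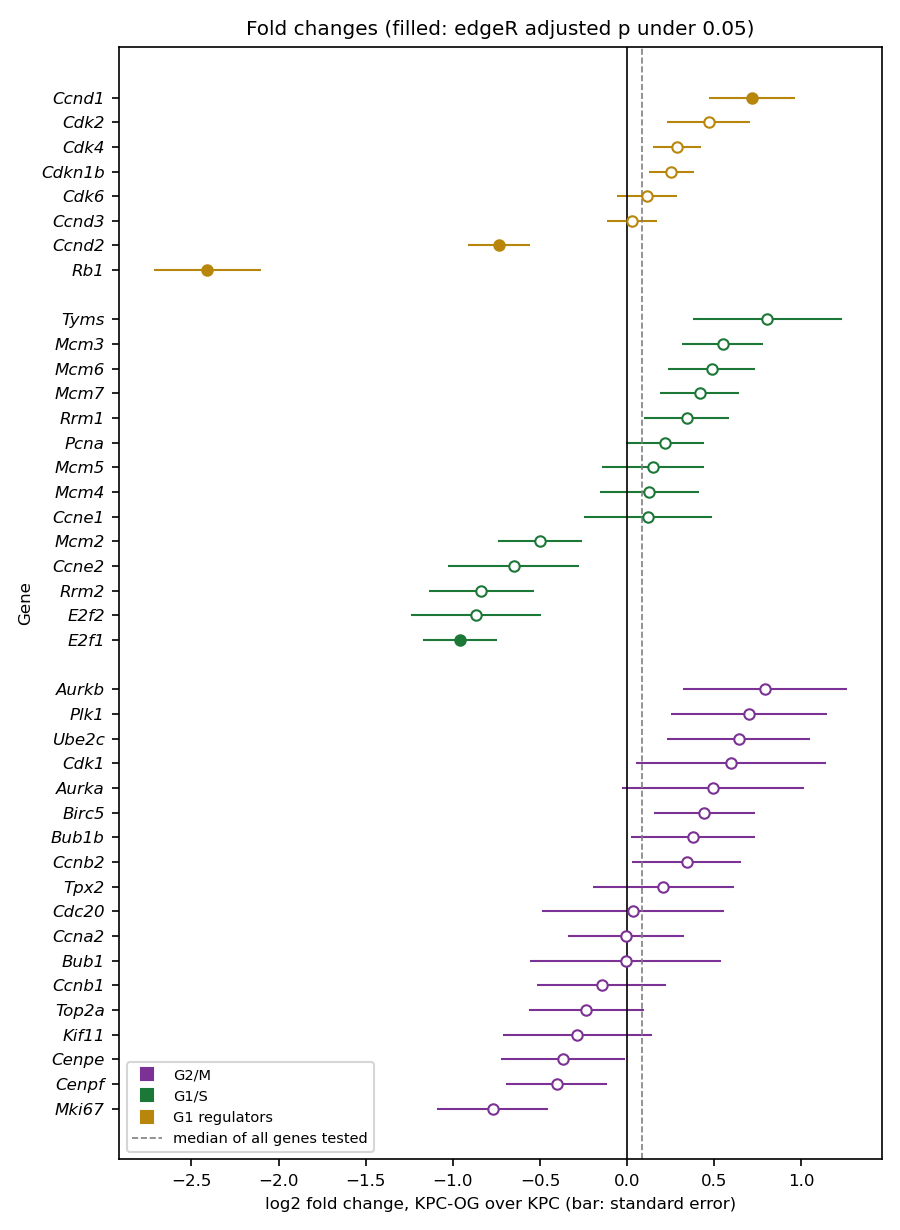
Log2 fold change of each of the 40 genes (x axis, KPC-OG over KPC, TMM scaling, bars are standard errors, n = 4 libraries a group), by role; filled points passed an adjusted p of 0.05. Rb1 stands at -2.41, and the 18 G2/M genes spread on both sides of 0 with none filled.

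None of the 18 G2/M genes passed the edgeR test, and 1 (Mki67) had an unadjusted p under 0.05. DESeq2 called Mki67 lower and no other G2/M gene, and limma-voom called none. The log2 fold changes lay from -0.77 for Mki67 to 0.79 for Aurkb, 10 above and 8 below 0, with a median of 0.12. Top2a, the topoisomerase that untangles sister chromatids, was at 18.5, 46.4, 14.1 and 31.4 CPM in KPC 1 to 4 and 27.4, 27.8, 17.5 and 21.6 CPM in KPC-OG 1 to 4 (log2 fold change -0.23, SE 0.33, adjusted p = 0.62). KPC 2 was the highest and KPC 3 the lowest of the 8 libraries, and the groups overlapped. Ube2c, the ubiquitin-conjugating enzyme of the anaphase-promoting complex, was at 2.29, 6.01, 1.33 and 3.04 CPM in KPC 1 to 4 and 7.12, 5.47, 2.95 and 4.50 CPM in KPC-OG 1 to 4 (log2 fold change 0.64, SE 0.41, adjusted p = 0.25). It was again high in KPC 2 and low in KPC 3, within overlapping groups. These are the members of the group with the highest mean level per transcript length (deposited TPM) that did not pass.

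The best known proliferation marker, Mki67, the coat protein of mitotic chromosomes, was at 33.6, 83.6, 26.3 and 43.6 CPM in KPC 1 to 4 and 28.7, 31.1, 21.3 and 28.5 CPM in KPC-OG 1 to 4 (log2 fold change -0.77, SE 0.32, adjusted p = 0.089). Its 4 KPC-OG libraries lay within a 1.46-fold range and the KPC libraries within a 3.18-fold range, and the 2 highest libraries of all 8 were KPC 2 and KPC 4, with KPC 1 next. Of the kinases, Cdk1, which drives entry into mitosis, was at 0.955, 7.32, 0.796 and 3.04 CPM in KPC 1 to 4 and 5.54, 5.23, 3.01 and 4.91 CPM in KPC-OG 1 to 4 (log2 fold change 0.60, SE 0.55, adjusted p = 0.43). Aurka and Aurkb, the spindle pole and chromosome passenger kinases, and Plk1, the polo-like kinase of mitotic entry, had log2 fold changes of 0.49, 0.79 and 0.70, with SEs of 0.52, 0.47 and 0.45. On the same log2 fold change scale, cyclins Ccnb1 and Ccnb2, partners of Cdk1, were at -0.15 and 0.34, and Ccna2, the cyclin of S phase and G2, was at -0.01. The spindle checkpoint kinase Bub1 was at -0.01 and its relative Bub1b at 0.38. The kinetochore genes Cenpe and Cenpf and the spindle motor Kif11 lay at -0.37, -0.40 and -0.29, and the spindle assembly factor Tpx2, the anaphase activator Cdc20 and survivin (Birc5) at 0.21, 0.03 and 0.44. With library sizes only all 18 stood above 0.

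Of the 14 G1/S genes, E2f1 passed edgeR's test and the other 13 did not. DESeq2 called E2f1 and Rrm2 lower, and limma-voom called E2f1 lower and Tyms higher. E2f1, the activator factor held by Rb1 (ENSMUSG00000027490, chromosome 2, 154559407 to 154569892, minus strand, coordinates of GRCm38 here and below), was at 4.01, 5.07, 4.51 and 4.22 CPM in KPC 1 to 4 and 2.53, 2.10, 2.23 and 2.29 CPM in KPC-OG 1 to 4. Every KPC-OG library lay below every KPC library, with means of 4.45 ± 0.460 against 2.29 ± 0.179 CPM (SD, n = 4 each) and a log2 fold change of -0.96 (SE 0.21, adjusted p = 0.007 in edgeR's test), whereas with library sizes only the log2 fold change was 0.77. E2f1 kept an adjusted p of 0.013 to 0.027 with each library left out in turn. E2f2, its relative, was at 4.97, 5.63, 2.12 and 6.75 CPM in KPC 1 to 4 and 1.52, 3.89, 3.14 and 2.32 CPM in KPC-OG 1 to 4 (log2 fold change -0.87, SE 0.38, adjusted p = 0.098). The groups overlapped for E2f2, with KPC 3 low.

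The replication genes split by sign, and none passed edgeR's test. Pcna, the sliding clamp of DNA polymerase, was at 16.2, 21.97, 11.1 and 18.4 CPM in KPC 1 to 4 and 20.8, 25.2, 14.1 and 18.99 CPM in KPC-OG 1 to 4 (log2 fold change 0.22, SE 0.22, adjusted p = 0.48). Mcm6, a subunit of the MCM helicase, was at 14.9, 22.7, 9.02 and 14.9 CPM in KPC 1 to 4 and 20.2, 25.2, 15.9 and 25.4 CPM in KPC-OG 1 to 4 (log2 fold change 0.49, SE 0.25, adjusted p = 0.16). For both, KPC 3 was the lowest of the 8 libraries, and the groups overlapped. The other helicase subunits Mcm3, Mcm4, Mcm5 and Mcm7 had log2 fold changes of 0.55, 0.13, 0.15 and 0.42, and Mcm2 one of -0.50 that turned to 1.27 with library sizes only. Of ribonucleotide reductase, which makes deoxynucleotides, the large subunit Rrm1 stood at a log2 fold change of 0.34 and the small subunit Rrm2 at -0.84 (adjusted p = 0.055 in edgeR's test, 0.028 in DESeq2 and 0.061 in limma-voom). Tyms, thymidylate synthase, was at 2.86, 15.2, 5.31 and 3.71 CPM in KPC 1 to 4 and 11.8, 11.7, 12.3 and 11.7 CPM in KPC-OG 1 to 4 (log2 fold change 0.80, SE 0.43, adjusted p = 0.18). Limma-voom gave Tyms a log2 fold change of 1.11 with an adjusted p of 0.040, and DESeq2 one of 0.79 with an adjusted p of 0.158. Its KPC-OG libraries lay within a 1.05-fold range and its KPC libraries within a 5.31-fold range. The E cyclins Ccne1 and Ccne2, partners of Cdk2, had log2 fold changes of 0.12 and -0.65.

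Ratios within a library do not depend on the scaling between libraries. They were computed from TPM for pairs chosen after their values were seen, and are given without a test. The ratio of Rrm2 to Rrm1 was 1.41, 1.69, 1.17 and 1.19 in KPC 1 to 4 and 0.792, 0.723, 0.714 and 0.563 in KPC-OG 1 to 4, or 1.36 ± 0.243 for KPC against 0.698 ± 0.0964 for KPC-OG (SD, n = 4 each). The ratio of Mcm2 to Mcm6 was 0.734, 0.660, 0.527 and 0.680 in KPC 1 to 4 and 0.402, 0.345, 0.368 and 0.243 in KPC-OG 1 to 4, or 0.650 ± 0.0882 for KPC against 0.340 ± 0.0684 for KPC-OG (SD, n = 4 each). Both ratios were lower in every KPC-OG library than in any KPC library. The MCM helicase takes equal numbers of its subunits, and the Mcm2 share of the summed TPM of Mcm2 to Mcm7 was 16.3 ± 1.99% for KPC against 9.09 ± 0.575% for KPC-OG (SD, n = 4 each). Among G2/M genes the ratio of Mki67 to Top2a was 0.602 ± 0.0233 for KPC against 0.354 ± 0.0790 for KPC-OG (SD, n = 4 each) and that of Birc5 to Mki67 0.568 ± 0.0785 for KPC against 1.24 ± 0.229 for KPC-OG (SD, n = 4 each), both without overlap. These genes differ in abundance-weighted transcript length, at 10075 bases for Mki67, 3308 for Top2a and 1603 for Birc5. Fold changes of G2/M genes were lower for longer transcripts (below), and the part of length in these ratios was not tested. Of the other pairs computed, Mcm2 to Mcm3 and E2f1 to Pcna did not overlap either. The ratios of Ccnd1 to Ccnd2, Ccnd1 to Ccnd3, Ccnd2 to Ccnd3, Ccne1 to Ccne2, Cdk4 to Cdk6 and Cdk4 to Cdkn1b overlapped. How often ratios of other gene pairs do not overlap was not computed. A ratio shows unequal change and not which gene changed.

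Of the 8 G1 regulators 3 were called (37.5%), near the 34.1% of all genes, and 1 of these calls (Rb1) was lost on coding transcripts. Ccnd1, cyclin D1 (ENSMUSG00000070348, chromosome 7, 144929931 to 144939925, minus strand), was at 23.9, 25.5, 28.7 and 36.3 CPM in KPC 1 to 4 and 57.8, 53.6, 25.5 and 50.7 CPM in KPC-OG 1 to 4. KPC-OG 3 lay within the KPC range and the other KPC-OG libraries above it. The means were 28.6 ± 5.51 against 46.9 ± 14.6 CPM (SD, n = 4 each), with a log2 fold change of 0.72 (SE 0.25, adjusted p = 0.047 in edgeR's test). In edgeR's fits that left out 1 library the call held without KPC 4 (adjusted p = 0.043) and without KPC-OG 3 (adjusted p = 0.00103), and was lost without each of the other 6, with adjusted p-values of 0.097 to 0.125. It was also lost with limma-voom (adjusted p = 0.113) and with a transcript length offset in edgeR (adjusted p = 0.101). Ccnd1 overlaps a tested gene on the opposite strand, and strand is not stated.

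Ccnd2, cyclin D2 (ENSMUSG00000000184, chromosome 6, 127125162 to 127152193, minus strand), was at 94.9, 52.8, 62.9 and 67.5 CPM in KPC 1 to 4 and 40.6, 47.6, 41.1 and 37.99 CPM in KPC-OG 1 to 4. All 4 KPC-OG libraries lay below the KPC range, with means of 69.5 ± 18.01 against 41.8 ± 4.09 CPM (SD, n = 4 each) and a log2 fold change of -0.73 (SE 0.18, adjusted p = 0.011 in edgeR's test), whereas with library sizes only it was 1.04. Ccnd3, cyclin D3, was at 23.7, 24.98, 27.1 and 28.03 CPM in KPC 1 to 4 and 23.05, 27.3, 32.7 and 22.8 CPM in KPC-OG 1 to 4 (log2 fold change 0.03, SE 0.14, adjusted p = 0.9). Within each library the TPM ratio of Ccnd1 to Ccnd2 was 0.769 ± 0.239 for KPC against 1.93 ± 0.759 for KPC-OG (SD, n = 4 each), and it overlapped through KPC-OG 3 (0.949) and KPC 2 (1.03).

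Cdk4, the catalytic partner of the D cyclins, was at 35.1, 30.2, 33.7 and 39.002 CPM in KPC 1 to 4 and 50.2, 40.6, 35.1 and 42.5 CPM in KPC-OG 1 to 4 (log2 fold change 0.29, SE 0.14, adjusted p = 0.14). The groups overlapped. By TPM it was the second highest of the 40 genes in both genotypes, after Rb1, and Ccnd3 came next. The first place of Rb1 is over all its transcripts, with 91.5% of its reads on a noncoding transcript of 324 bases (below). Cdk6, Cdk2 and the inhibitor Cdkn1b had log2 fold changes of 0.11, 0.47 and 0.25 with SEs of 0.17, 0.24 and 0.13.

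Rb1 (ENSMUSG00000022105, chromosome 14, 73183673 to 73325822, minus strand), the retinoblastoma protein gene, had the lowest fold change of the 40. It was at 488, 377, 484 and 513 CPM in KPC 1 to 4 and 63.4, 57.9, 151 and 79.04 CPM in KPC-OG 1 to 4, with means of 465 ± 60.6 against 87.7 ± 42.8 CPM (SD, n = 4 each) and a log2 fold change of -2.41 (SE 0.31, adjusted p = 0.001 in edgeR's test). Every KPC-OG library was below every KPC library, with KPC-OG 3 the highest of its group. Of the Rb1 reads, 91.5% were assigned to a transcript of 324 bases annotated as nonsense-mediated decay, at 96.4% to 98.0% in the KPC libraries and 82.9% to 90.7% in KPC-OG, and 6.46% to the only protein-coding transcript, of 4656 bases. On the coding transcript alone Rb1 was at 16.6, 11.5, 9.29 and 12.3 CPM in KPC 1 to 4 and 7.25, 6.997, 11.3 and 8.04 CPM in KPC-OG 1 to 4, and the log2 fold change was -0.54 (SE 0.22, adjusted p = 0.085 in edgeR's test on coding transcripts), so that the call was lost. The other 39 genes had at least 70% of their reads on coding transcripts. Rb1 is 1 of 1033 among 13710 protein-coding genes tested with under 50% there. Reads assigned to Lars2 moved alongside, at 472649, 318670, 561194 and 398282 CPM in KPC 1 to 4 and 20476, 18002, 57664 and 31382 CPM in KPC-OG 1 to 4, and their part in the Rb1 result was not tested.

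**Figure D2:**
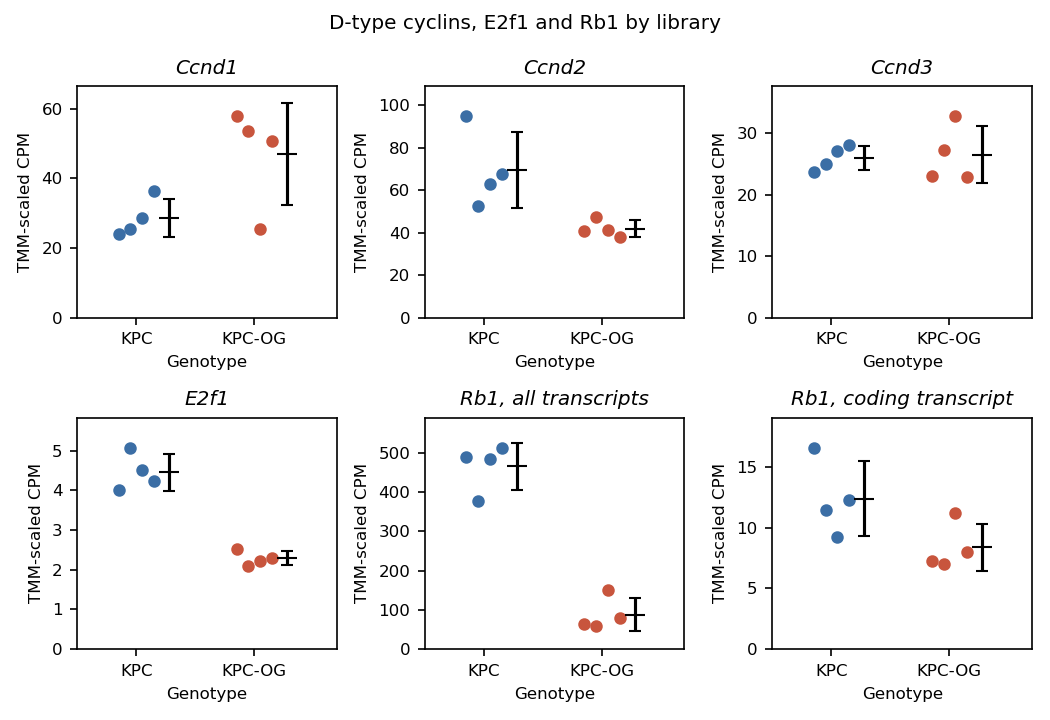
TMM-scaled CPM (y axis) of the D-type cyclins, E2f1 and Rb1 in each library (points), with the mean and SD beside each group of 4 libraries. E2f1, Ccnd2 and Rb1 over all transcripts do not overlap between genotypes, whereas Rb1 on its coding transcript does.

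Genes outside the 40 that act in the same steps were read from the same fit, in which 34.1% of all genes were called. Of 40 other G2/M genes tested, 2 were higher and none lower in edgeR's test, and 4 had an unadjusted p under 0.05. DESeq2 called 3 higher and 0 lower, beside 2715 and 2726 of all genes, and limma-voom 2 and 0, beside 1751 and 2368. Pttg1 (securin, which holds separase back until anaphase) was at 1.91, 2.44, 1.86 and 3.21 CPM in KPC 1 to 4 and 5.81, 5.60, 4.65 and 6.19 CPM in KPC-OG 1 to 4, and each KPC-OG library was above each KPC library (log2 fold change 1.22, SE 0.24, adjusted p = 0.0036). Kif23, a motor of cytokinesis, behaved the same way without overlap (log2 fold change 1.12, SE 0.35, adjusted p = 0.031). Of 40 tested other G1/S and replication genes, 3 were higher and 3 lower, or 15.0% called. Gmnn (geminin, the inhibitor of replication licensing), Slbp (the histone mRNA stem-loop binding protein) and Nasp (a histone chaperone) rose by 1.10, 0.60 and 0.54 on the log2 scale, and Usp1 (a deubiquitinase of DNA repair), Fen1 (the flap endonuclease) and Atad2 fell by 0.51, 0.68 and 0.56 under TMM scaling. With library sizes only, 107 genes were higher and 0 lower over these lists and the list of other G1 and checkpoint regulators (below) together. Nasp and Atad2 lost their calls on coding transcripts alone, with adjusted p-values of 0.069 and 0.0501.

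Of 30 tested other G1 and checkpoint regulators, 5 were higher and 5 lower, or 33.3% called, near the 34.1% of all genes. Cdkn2b, the p15 inhibitor of Cdk4 and Cdk6, was at 0.382, 0.939, 2.12 and 1.18 CPM in KPC 1 to 4 and 8.46, 9.23, 5.50 and 11.1 CPM in KPC-OG 1 to 4 (log2 fold change 2.96, SE 0.39, adjusted p = 0.00082). Cdkn2a, which encodes p16 and p19Arf, was at 0.191, 0.563, 0 and 0.169 CPM in KPC 1 to 4 and 3.68, 4.35, 1.24 and 2.77 CPM in KPC-OG 1 to 4 and held no read in KPC 3, with a fitted log2 fold change of 3.60 (SE 0.65, adjusted p = 0.0028 in edgeR's test). All KPC-OG libraries were above the KPC libraries for both genes. Chek2, the checkpoint kinase, passed as well (log2 fold change 1.28, SE 0.34, adjusted p = 0.015). Cdkn1a (p21) and Cdkn1c (p57) also passed, with log2 fold changes of 1.10 and 2.21. Cdkn1c overlapped, since KPC-OG 3 (3.34 CPM) lay within the KPC range of 2.70 to 4.202 CPM. The inhibitors Cdkn2c and Cdkn2d did not pass in edgeR's test on coding transcripts. Their log2 fold changes there were 0.21 and 0.14, with adjusted p-values of 0.66 and 0.78. Under TMM scaling Myc was lower in each KPC-OG library, at 13.6, 18.97, 17.5 and 17.2 CPM in KPC 1 to 4 and 6.55, 7.18, 7.99 and 6.73 CPM in KPC-OG 1 to 4 (log2 fold change -1.24, SE 0.15, adjusted p = 0.00062). Tfdp2, a partner of E2F, and Cdc25a, a phosphatase that activates Cdk2, fell to log2 fold changes of -1.11 and -0.9994.

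Within a genotype some libraries were high or low for most G2/M and G1/S genes. KPC 2 was the highest KPC library for 18 of 18 G2/M genes and 13 of 14 G1/S genes, where it was so for 23.0% of all genes tested. KPC 3 was the lowest KPC library for 11 of 18 and 11 of 14, and KPC-OG 3 the lowest KPC-OG library for 16 of 18 and 9 of 14, against 26.8% and 35.3% of all genes. KPC-OG 1 differed between the role groups, as the highest KPC-OG library for 9 of 18 G2/M genes but for 1 of 14 G1/S genes, where it was the lowest for 3. Mean log2(CPM + 1) over the 18 G2/M genes was 2.17, 3.40, 1.87 and 2.59 in KPC 1 to 4 and 2.92, 2.89, 2.27 and 2.78 in KPC-OG 1 to 4. Over the 14 G1/S genes it was 2.95, 3.64, 2.56 and 3.16 in KPC and 3.10, 3.32, 2.95 and 3.18 in KPC-OG. The means of all genes tested stayed at 3.23 to 3.32 in KPC and 3.36 to 3.39 in KPC-OG.

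**Figure D3:**
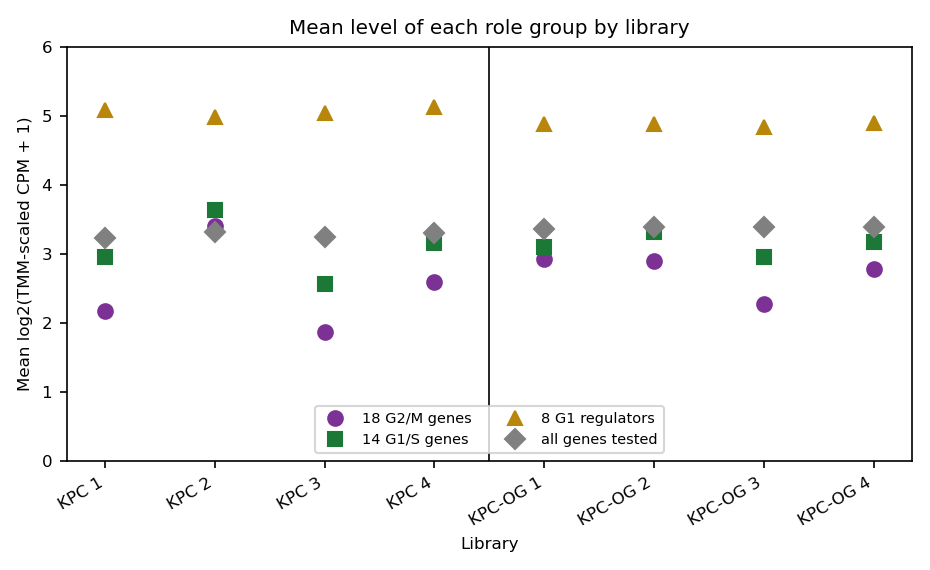
Mean log2(TMM-scaled CPM + 1) (y axis) over each role group and over all genes tested in each of the 8 libraries (x axis). KPC 2 has the highest mean for G2/M genes (3.40) and KPC 3 the lowest (1.87), while the G1 regulators stay between 4.83 and 5.13.

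G2/M genes lay below G1/S genes by this measure in every library, with a difference of -0.57 ± 0.23 for KPC against -0.42 ± 0.21 for KPC-OG (SD, n = 4 each), which is a description with no test. The spread was wider in KPC: the coefficient of variation was larger in KPC for 18 of 18 G2/M and 14 of 14 G1/S genes, beside 72.2% of all genes, and its median over G2/M genes was 60.3% in KPC and 24.1% in KPC-OG. For the G1 regulators it was larger in KPC for 4 of 8. The lower depth of KPC moves with this spread, and its part was not tested.

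**Figure D4:**
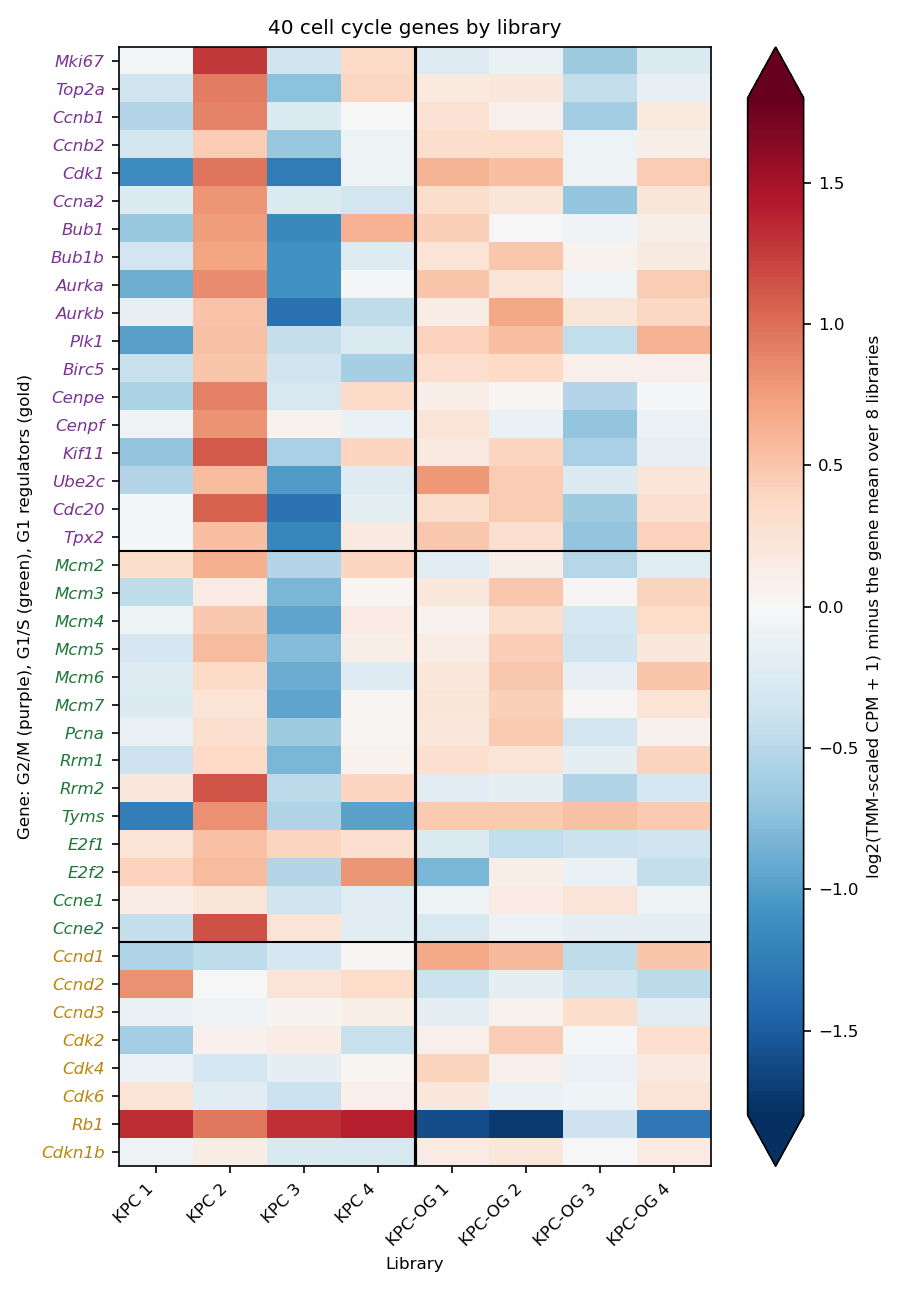
Log2(TMM-scaled CPM + 1) of each of the 40 genes minus its mean over the 8 libraries (colour), for 4 KPC and 4 KPC-OG libraries (columns). Red marks libraries above the gene's mean, seen for the G2/M genes in KPC 2, and blue below it, as in KPC 3.

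The marker lists of lymphoid cells also differed between libraries. The 9 T cell markers summed to 2.10, 40.2, 1.86 and 38.5 CPM in KPC 1 to 4 and to 5.27, 46.7, 27.7 and 14.3 CPM in KPC-OG 1 to 4, with Cd4 and Lck the highest, and 0 of 8 tested passed edgeR's test (0 at an unadjusted p under 0.05). The 8 B cell and lymphoid follicle markers summed to 2.86, 57.5, 2.92 and 77.0 CPM in KPC and to 4.60, 79.5, 49.4 and 25.0 CPM in KPC-OG, with Ms4a1 and Cd79b the highest, and 0 of 8 passed (0 at an unadjusted p under 0.05). KPC 2 and KPC 4 were high and KPC 1 and KPC 3 low for both lists, with Cd3g, Ms4a1, Cd8b1 and Trac at 0 in KPC 1 and KPC 3. The part of these cells in the cell cycle levels was not tested. In KPC-OG the order differed, since KPC-OG 1 had the lowest lymphoid sums and the highest G2/M mean. Of markers of other cells, 8 of 10 of duct cells, 9 of 10 of macrophages and 8 of 9 of fibroblasts passed edgeR's test as higher in KPC-OG. So did 3 of 5 tested erythroid markers and 1 of 7 islet markers, beside 17.4% of all genes. None of these lists had a lower call, and the part of these cells in the cell cycle results was not tested.

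Leaving out single libraries moved the count of calls. Without KPC 2, 5 of the 40 genes were higher (Birc5, Cdk1, Tyms, Mcm6 and Bub1b), against 16.4% of all genes tested, and 3 lower, against 15.8%. Without KPC 3, none was higher and 7 were lower (Ccnd2, Mcm2, E2f2, Rrm2, Rb1, E2f1 and Mki67), against 14.2%. With both KPC 2 and KPC-OG 3 left out, 13 were higher and 3 lower, against 19.0% and 18.7% of all genes. That pair was chosen after the values were seen, for being the highest KPC and the lowest KPC-OG library for most of these genes, so that leaving them out raises the fold changes by construction and the count is no evidence of a rise.

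Log2 fold changes of the G2/M genes were lower for longer transcripts. Spearman's rho between abundance-weighted transcript length and log2 fold change was -0.80 over the 18 G2/M genes, -0.16 over the 14 G1/S genes, 0.12 over the 8 G1 regulators, -0.38 over all 40 and -0.25 over all 14267 genes tested. These are correlations across genes that share libraries, given as a description. The 6 shortest G2/M genes, of 971 to 1657 bases, had a median of 0.52 with 5 of 6 above 0, and the 6 longest, of 3308 to 10075 bases, a median of -0.33 with 1 of 6 above 0. Over all genes the medians of the short, middle and long tertile were 0.32, 0.06 and -0.12. Mki67, Cenpf and Cenpe, the longest G2/M genes, were below 0, and Ube2c and Aurkb, among the shortest, above it. With a transcript length offset in edgeR's fit 1 of the 40 was higher (Mcm3 in place of Ccnd1) and 3 were lower, beside 2165 and 2068 of all genes. That offset takes each gene's length relative to its own mean over the libraries. It corrects only for shifts in length between libraries, so it cannot address the trend across genes of different length.

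**Figure D5:**
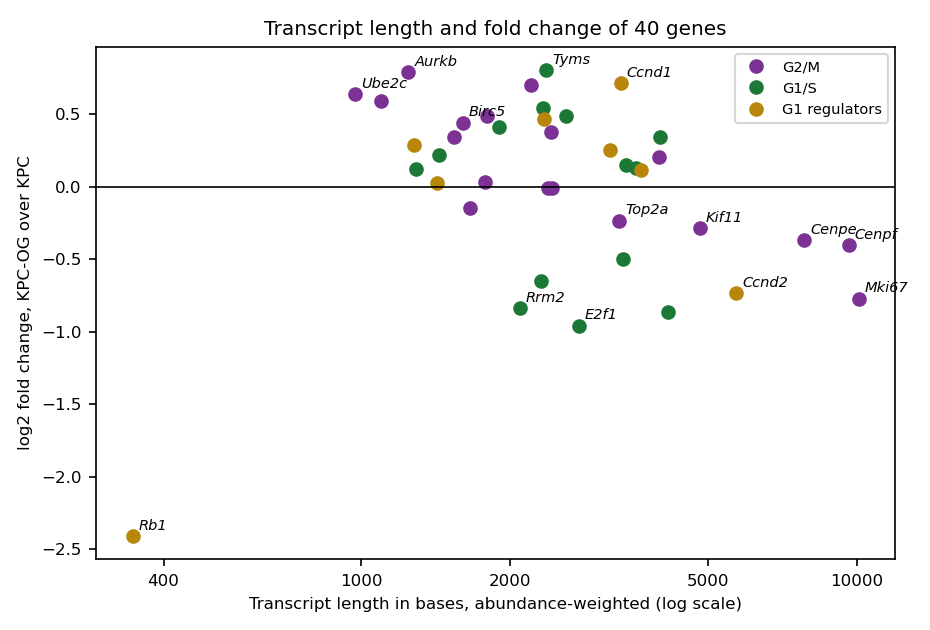
Log2 fold change, KPC-OG over KPC (y axis), against abundance-weighted transcript length in bases (x axis, log scale) for each of the 40 genes, coloured by role. The G2/M genes run from Ube2c and Aurkb at the upper left to Mki67 at the lower right, and Rb1 lies alone at 347 bases.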

How the data were processed

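Total RNA of 8 pancreas samples was sequenced on an Illumina HiSeq after ribosomal depletion, per the labels' protocols. Per the file headers, the authors estimated reads per transcript (expected counts) with Sailfish 0.6.3, correcting for bias, over 1000 iterations, with a k-mer length of 20, on Ensembl release 76 cDNA. Deposited TPM values are Sailfish abundances scaled within each library, per the file headers. STAR 2.0.4b, limma, edgeR and bcl2fastq are also named, with no role, in the submitters' processing notes.

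Of 86127 transcripts, 83827 matched GENCODE M21 (GRCm38); the other 2300 held 1.45% to 4.23% of estimated reads per library and were left out. Counts were summed per gene and rounded. Genotypes were compared by the robust quasi-likelihood test of edgeR 4.0.16 (R 4.3.3) after filterByExpr, with TMM scaling and Benjamini-Hochberg adjustment at 0.05. The code was run on simulated counts with 200 changed genes, up and down in equal number. That simulation took the TMM sizes as true, so it could not check the scaling of the real libraries. SE is the log2 fold change over the root of F. Alternatives used limma 3.58.1 and DESeq2 1.42.0. Strand is not stated, so overlapping genes (Ccna2, Cdc20, Mcm7, Ccne2, Ccnd1, Ccnd3, Cdk2, Cdk4, Rb1) and genes with pseudogenes (Ccnb1, Ccnb2, Pcna, Ccnd3) are uncertain. A further allele that both genotypes share is not reported here. The 40 genes and all lists were chosen with earlier results of these data known. Values in all libraries are given for genes that passed and the 2 highest by TPM in each role group that did not; Mki67, Cdk1, E2f2 and Tyms were added after their values were seen. From each other list, up to 3 higher and 3 lower genes by adjusted p were named. Cdkn1a, Cdkn1c, Cdkn2c and Cdkn2d were named outside that rule after their values were seen. Chi-square divided by its degrees of freedom was 14.7 or more between any 2 libraries of a group, so none was a duplicate.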

Additional observations from a re-analysis of the deposited data

Results flagged for a closer look

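In 80 groups of 4 libraries (40 genes in 2 genotypes), 4 had 1 library far from the other 3 by Dixon's ratio. The cutoff of 1 in 20 is for a single group. These genes share the same libraries, so the count cannot be set against chance. Ccna2 was at 15.2 CPM in KPC 2 with the others at 6.42 to 6.90, and at 4.71 CPM in KPC-OG 3 with the others at 9.88 to 10.7. Birc5 was at 6.57 CPM in KPC 2 with the others at 2.53 to 3.18. Cenpf was at 12.8 CPM in KPC 2 with the others at 6.25 to 7.16.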

How the results depend on the processing

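With library sizes only, 34 of the 40 genes were higher and 1 lower, with 13078 and 99 of all genes, 107 and 0 of the other cell cycle genes and 46 and 5 of the cell type markers. With limma on log2(TPM + 1) the counts were 36 and 1, 12856 and 121, 107 and 0, and 45 markers higher, and on log2(TPM + 0.1) 36 and 1, 12817 and 120, 104 and 0, and 44. These scalings raise nearly all genes together. Limma on log2(TPM + 1) centred on the median gene, added after seeing the data, called 2 of the 40 higher and 8 lower. It called 6 and 29 other cell cycle genes, and 2113 genes higher and 3787 lower in all. DESeq2 called 5 of the 40 lower, beside 2726 of all genes, and the cause was not tested. Leaving out each library in turn gave 0 to 5 of the 40 higher and 3 to 7 lower, and 5 to 17 other cell cycle genes higher. Of all genes, 1689 to 2881 were higher and 1705 to 2548 lower in those fits. Leaving out KPC 2 and KPC-OG 3 together, added after seeing the data, gave 13 of the 40 and 22 other cell cycle genes higher, beside 2812 of all genes.

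Log2 fold changes of these genes changed sign. With library sizes only they became Mki67 0.95, Top2a 1.49, Ccnb1 1.60, Ccna2 1.76, Bub1 1.69, Cenpe 1.37, Cenpf 1.34, Kif11 1.45, Mcm2 1.27, Rrm2 0.89, E2f1 0.77, E2f2 0.87, Ccne2 1.03 and Ccnd2 1.04. On log2(TPM + 1) they became Mki67 0.76, Top2a 1.56, Ccnb1 1.31, Ccna2 1.35, Bub1 0.77, Cenpe 0.58, Cenpf 0.74, Kif11 0.95, Mcm2 0.92, Rrm2 0.83, E2f1 0.40, E2f2 0.73, Ccne2 0.67 and Ccnd2 0.82, and on log2(TPM + 0.1) Mki67 0.92, Top2a 1.72, Ccnb1 1.61, Ccna2 1.59, Bub1 1.53, Cenpe 1.19, Cenpf 1.26, Kif11 1.41, Mcm2 1.10, Rrm2 1.01, E2f1 0.60, E2f2 1.21, Ccne2 0.99 and Ccnd2 0.88. Centred on the median gene, log2(TPM + 1) gave Top2a 0.13, Cdc20 -0.081, Tpx2 -0.25, Mcm4 -0.030, Mcm5 -0.029 and Ccne1 -0.48. Without KPC 2 and KPC-OG 3 they were Top2a 0.22, Ccnb1 0.48, Ccna2 0.57, Bub1 0.47, Cenpe 0.15, Cenpf 0.038, Kif11 0.37 and Ccnd3 -0.13. Genes near 0 also turned with limma-voom (Ccna2 0.062 and Bub1 0.37), with no filter (Ccna2 0.032 and Bub1 0.033), on coding transcripts (Ccnb1 0.099, Bub1 0.097 and Ccnd3 -0.064) and with a length offset (Cdc20 -0.0086 and Ccne1 -0.022). Leaving out 1 library in turn spanned Top2a -0.45 to 0.13, Ccnb1 -0.36 to 0.32, Ccna2 -0.15 to 0.39, Bub1 -0.33 to 0.42, Cenpe -0.60 to 0.028, Kif11 -0.54 to 0.23, Cdc20 -0.28 to 0.70, Tpx2 -0.059 to 0.47, Mcm4 -0.094 to 0.35, Mcm5 -0.047 to 0.43, Ccne1 -0.027 to 0.29 and Ccnd3 -0.076 to 0.092. E2f1, Ccnd2 and Rb1 kept their calls in each fit that left out 1 library.

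Replicate numbers were not taken as pairs: same-numbered libraries correlated at 0.274, 0.275, 0.0385 and 0.0361 in their deviations, and KPC 3 correlated best with KPC-OG 1. With the replicate block 2 of the 40 genes were higher (Mcm6 and Mcm3) and 5 lower, beside 2478 and 2417 of all genes. In that fit the Ccnd1 call was lost (adjusted p = 0.060 in edgeR's test), and Ccna2 at 0.027 and Bub1 at 0.20 changed sign. Of the G2/M genes in KPC, Aurkb rested on the fewest estimated reads, 0.866 to 18.6 a library, and Mki67 on the most, 99.3 to 445. The part of depth in the G2/M results was not tested.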
